A study of Homo sapiens with 20 samples.

Results

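The 8 genes described here, KIT, NRAS, BRAF, NF1, CCND1, CDKN2A, MYC and TERT, are recurrent drivers and tumour suppressors of melanoma, out of 20136 protein-coding genes in the annotation. Their sites were chosen by position alone: every ChIP-seq peak that overlapped the hg19 GENCODE bounds of one of the genes, or the 10 kb on either side of it. This gave 723 of the 1600648 peaks on chromosomes. Peaks of all lists that overlapped by at least 1 bp were joined, which gave 92 of 224475 sites, numbered within each gene in the order of their hg19 coordinates.

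ChIP-seq, which sequences the DNA that an antibody pulls down from crosslinked chromatin, was carried out in M14, an established human melanoma line. Cells of every group carried a doxycycline-inducible shRNA against STAG2; those given doxycycline are called STAG2-KD and those not given it are called WT. Immunoprecipitation of STAG1, STAG2, CTCF or SMC1A was done in 2 WT and 2 STAG2-KD libraries for each protein, and each of these 16 libraries had its own peak list. The labels give a culture of 5 days with or without doxycycline for replicate 1 and no culture protocol for replicate 2, and they do not say whether the line was 1 clone or whether the replicates were separate cultures. The replicates also differed in how chromatin was extracted and fragments were sized, with beads used for replicate 1 but a gel for replicate 2, and their lists had different thresholds. WT and STAG2-KD were therefore compared within a replicate, and any p-value below measures only the spread between these libraries, which may be technical.

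KIT is a receptor tyrosine kinase that signals through RAS proteins such as NRAS to the kinase BRAF, and NF1 encodes neurofibromin, which returns RAS to its inactive form. CCND1 encodes cyclin D1, the partner of the kinases that drive cells out of G1, CDKN2A encodes their inhibitor INK4a and, from a separate start, ARF, which protects p53, MYC is a transcription factor of growth genes, and TERT is the catalytic subunit of telomerase. Cohesin is a ring that extrudes and holds DNA loops. It contains SMC1A and either STAG1 or STAG2, and CTCF bound to its motif is a place where the ring often halts. A peak reports where these proteins were crosslinked and not whether the gene was transcribed, and in a bulk sample fewer cells with a bound site and less binding per cell cannot be told apart.

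Sequences at the summits were read from the hg19 reference to show what the CTCF sites of these genes share. The core searched for was CC, 3 bases of any kind, AG, 2 bases of any kind and GGC, on either strand and within 50 bp of a summit. Joined from the CTCF lists alone, the 8 windows held 43 CTCF sites, and 9 of them (20.9%) had a match, against 17.2% of 135592 CTCF sites of the genome. At the sequence 5 kb away the shares were 4.65% and 1.06%. Of the 27 CTCF sites found in all 4 CTCF lists, 9 (33.3%) had a match, against 26.5% in the genome. A match is a description of letters and does not show that CTCF was bound through them. The 7 matches outside MYC are printed below 5′ to 3′ on the strand of the match, with the core in capitals, because they are the CTCF sites of these genes that held the core. Distances are from the start of the canonical transcript to the summit.
KIT site 3, intron 1, 12.1 kb, plus strand, chr4:55536136-55536165: cagtgctgcCCTCCAGAGGGCtgagcacca
KIT site 5, intron 1, 25.8 kb, plus strand, chr4:55549958-55549987: cttcttttgCCACCAGGTGGCacgcttgtg
BRAF site 5, intron 3, 114 kb, plus strand, chr7:140511048-140511077: aagatatgaCCACGAGGTGGCagtagcatg
CDKN2A site 16, 21.0 kb upstream, minus strand, chr9:21995810-21995839: gcgcgccggCCTGAAGGCGGCgtcctgggc
CCND1 site 13, downstream, 18.7 kb, minus strand, chr11:69474656-69474685: ctgtcaacaCCAGGAGGGGGCatccgtggt
NF1 site 20, downstream, 289 kb, plus strand, chr17:29710674-29710703: tgagttcttCCTGCAGATGGCctcatctct
NF1 site 26, downstream, 295 kb, plus strand, chr17:29716566-29716595: ctgcagcccCCACCAGGGGGCagccccagc
The start of NRAS had no CTCF peak in any list. The 100 bases before it, chr1:115259393-115259492 on the minus strand, are printed to show this CTCF-free cohesin site, with CG steps in capitals.
NRAS: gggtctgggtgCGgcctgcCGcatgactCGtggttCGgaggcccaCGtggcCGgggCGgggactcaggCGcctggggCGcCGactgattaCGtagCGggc
These 100 bases held 12 CG steps, had a GC content of 74% and held 0 matches to the core.

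All 8 genes had peaks, but in very different numbers. Across the 16 lists NF1 had 201 peaks, CCND1 132, MYC 127, BRAF 83, CDKN2A 80, KIT 62, TERT 28 and NRAS 10. NF1 and BRAF are long genes, so the numbers were also taken per length. MYC had a median of 29.1 peaks per 100 kb over the lists and CCND1 had 22.5, which placed them at median percentiles of 98.7 and 97.9 among protein-coding genes. CDKN2A stood at percentile 76.9 with 8.41 peaks per 100 kb. NF1, KIT and TERT were below the middle of the genes, at percentiles 40.0, 34.1 and 29.1. BRAF and NRAS were lowest, at 21.6 and 21.0, and differed from each other by less than the gap to any other gene.

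**Figure D1:**
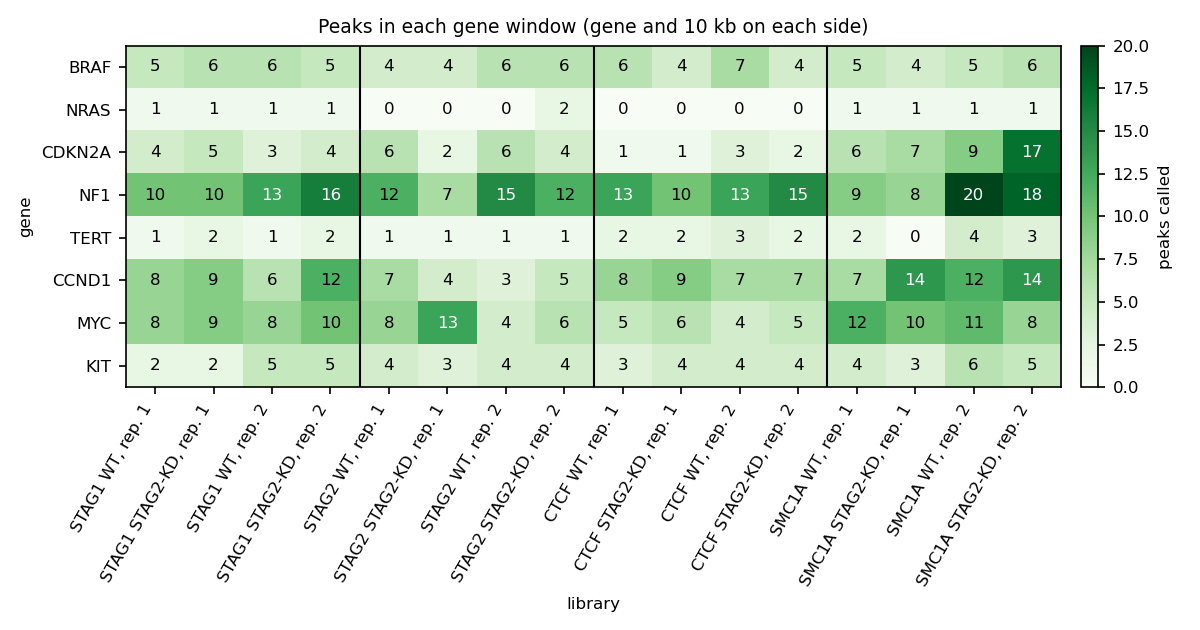
Number of peaks called in each gene window (rows) in each of the 16 libraries (columns, grouped by antibody), printed in the cell and shown as colour. NF1 holds between 7 and 20 peaks in every list and NRAS between 0 and 2, and the darkest cells of CDKN2A and CCND1 are in the SMC1A lists.

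The sites themselves were unevenly shared. Of the 92 sites, 13 (14.1%) were in all 16 lists, against 16.6% of sites of the genome, and 36 (39.1%) were in a single list, against 32.5%. SMC1A had a peak at 79 of the 92 sites, STAG1 at 40, STAG2 at 38 and CTCF at 35. Sites with SMC1A and no other antibody made up 39.1%, against 23.6% of the genome, and 11 of the 36 were at CDKN2A, 11 at CCND1 and 9 at NF1. At CDKN2A and CCND1 most summits with SMC1A alone were called in replicate 2 only. The SMC1A lists of replicate 2 were longer, with 148396 peaks in WT and 150308 in STAG2-KD, against 82287 and 91582 in replicate 1. BRAF, with 4 of its 10 sites in all 16 lists and 0 sites with SMC1A alone, had the largest share of common sites among the 8 genes. CDKN2A and CCND1 had 1 of 16 sites each in all lists, with 11 and 9 in a single list, and neither TERT (0 of 4) nor NRAS (0 of 1) had a site in all of them.

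The strength of a peak is given as its percentile, from 0 to 100, in the −log10 p-values of its own list, because fold and p-value depend on depth and threshold. A percentile is a rank and moves with the length of the list. The STAG2 lists were shorter in STAG2-KD than in WT (58521 against 79115 peaks in replicate 1, 106203 against 119021 in replicate 2), which lowers the percentile of an unchanged peak, and the STAG1 lists were longer (85621 against 63535, and 104663 against 98453), which raises it. Percentile changes are therefore given as ranks, with fragments beside them at some sites. A percentile change given without fragments is a change of rank only and does not show a change in binding. Where changes are written as a pair, each goes from WT to STAG2-KD and replicate 1 comes first. NRAS (chr1:115247090-115259392, minus strand), the RAS gene most often mutated in melanoma, had a single site, at its start. STAG1 stood there at percentile 66.8 in WT and 76.0 in STAG2-KD of replicate 1, against 88.0 and 81.5 in replicate 2. SMC1A stood at 34.3 and 44.3 in replicate 1, against 64.0 and 52.95 in replicate 2. STAG2 had no peak in 3 lists and appeared only in STAG2-KD of replicate 2, at percentile 13.8. The STAG1 summit held 83 fragments in WT and 107 in STAG2-KD of replicate 1, and 171 and 152 in replicate 2. After scaling for depth the log2 ratio was 0.58 (95% interval 0.16 to 1.01) in replicate 1 and −0.03 (−0.36 to 0.29) in replicate 2. The STAG1 site of NRAS was therefore strong in all 4 lists, and its increase in replicate 1 was not seen in replicate 2. Intervals of this kind are exact Clopper-Pearson intervals of 2 libraries, cover counting error only and do not compare the conditions.

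KIT (chr4:55523434-55606949, plus strand) had 8 sites in and around 83.5 kb of gene, and its 2 sites shared by all 16 lists were both in intron 1. The site nearest to its start, KIT site 1 at 0.814 kb, was held by STAG2 at percentile 53.1 in WT and 21.6 in STAG2-KD of replicate 1, against 62.7 and 48.9 in replicate 2. The SMC1A percentile went from 49.6 to 32.5 and from 72.4 to 46.9, and that of CTCF from 49.0 to 42.4 and from 60.5 to 52.8. In fragments, the log2 ratios of STAG2 at this site were −0.93 (−1.93 to 0.01) and −0.44 (−1.25 to 0.35). Those of SMC1A were −0.38 (−1.68 to 0.90) and −0.76 (−1.82 to 0.25). Those of CTCF were −0.41 (−1.31 to 0.48) and −0.34 (−1.09 to 0.39), so each of these intervals included 0. STAG1 was at 25.9 and 28.1 in replicate 1, against 49.1 and 45.4 in replicate 2. The strongest site of the gene was KIT site 5, 25.8 kb into the gene, the site of the second KIT sequence printed above. There STAG2 went from 58.9 to 43.2 and from 74.7 to 71.2, STAG1 from 43.9 to 56.8 and from 62.5 to 62.7, CTCF from 60.05 to 64.3 and from 78.1 to 78.7, and SMC1A from 71.1 to 69.8 and from 87.1 to 87.1. In the other measures, the fold enrichment of STAG1 went from 8.89 to 12.2 and from 8.43 to 6.88, and the depth-scaled log2 ratios of its fragments were 0.45 (−0.32 to 1.23) and 0.07 (−0.59 to 0.73). Those of STAG2 were −0.57 (−1.39 to 0.22) and −0.20 (−0.77 to 0.37), so all 4 intervals included 0. KIT sites 3 and 4 had CTCF peaks and no cohesin peak.

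BRAF (chr7:140419127-140624729, minus strand), the kinase gene of the RAS pathway, had 4 sites in all 16 lists, spread over its length. Its strongest was BRAF site 5 in intron 3, with a mean percentile of 89.8 over the lists. SMC1A stood there at 97.7 in WT and 97.7 in STAG2-KD of replicate 1, against 97.2 and 98.3 in replicate 2. STAG2 was at 85.5 and 82.1 in replicate 1, against 92.5 and 92.7 in replicate 2, and CTCF was between 86.8 and 93.5. At the start of the gene, BRAF site 10 at 0.628 kb, STAG2 went from 55.9 to 42.5 and from 74.0 to 72.9. SMC1A at the start went from 69.4 to 59.2 and from 84.4 to 79.7, while CTCF was at 69.8 and 70.9 and at 79.4 and 81.3. In fragments, SMC1A at this start held 28 in WT and 29 in STAG2-KD of replicate 1 and 61 and 60 in replicate 2. Its log2 ratios were −0.08 (−0.89 to 0.72) and −0.004 (−0.54 to 0.53). Those of STAG2 at the start were −0.17 (−0.90 to 0.54) and −0.15 (−0.63 to 0.32). The largest fall of STAG2 in percentile at any shared site of the 8 genes was at BRAF site 7, in intron 1 and 24.95 kb from the start, a site chosen for description after its values were seen. STAG2 stood there at 61.2 in WT and 8.62 in STAG2-KD of replicate 1, with 54 and 25 fragments (log2 ratio −1.04, interval −1.78 to −0.33). In replicate 2 it stood at 75.4 and 68.2, with 79 and 69 fragments (log2 ratio −0.24, −0.73 to 0.25). The CTCF peak at BRAF site 3, in exon 18, was present only in WT, at percentiles 0.13 and 3.99, and so was among the weakest peaks of both lists. It was no longer called lost under a stricter or a common threshold.

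NF1 (chr17:29421945-29709134, plus strand), the longest of the genes, had 28 sites. At its start, NF1 site 2, STAG2 was at 52.6 in WT and 13.4 in STAG2-KD of replicate 1, against 69.8 and 61.7 in replicate 2. SMC1A at the start went from 49.0 to 29.6 and from 76.7 to 69.4. In fragments, STAG2 at the start held 31 and 19 in replicate 1 and 47 and 47 in replicate 2. Its log2 ratios were −0.63 (−1.54 to 0.24) and −0.04 (−0.66 to 0.57). SMC1A held 13 and 12 fragments in replicate 1 (−0.25, −1.51 to 1.00) and had no unique fragment number in WT of replicate 2. STAG1 had no peak at the start in WT of replicate 1, stood at 10.3 in STAG2-KD, and was at 23.9 and 39.4 in replicate 2. All 3 of the sites shared by all 16 lists, NF1 sites 7, 18 and 26, were strong. NF1 site 18 in intron 57 had the highest mean percentile of the gene, 85.5, and STAG2 there went from 89.3 to 84.6 and from 89.5 to 87.4, while STAG1 went from 77.5 to 85.3 and from 86.8 to 87.4. NF1 sites 7 and 26 were described after their values were seen. At NF1 site 26, which lies past the end of the gene and carries the last NF1 sequence printed above, STAG2 held 76 fragments in WT and 34 in STAG2-KD of replicate 1 and 115 and 90 in replicate 2. The depth-scaled log2 ratios were −1.09 (−1.72 to −0.49) and −0.40 (−0.81 to 0.01). CTCF at the same place held 190 and 188 fragments in replicate 1 and 185 and 190 in replicate 2, with log2 ratios of −0.12 (−0.41 to 0.18) and −0.00 (−0.30 to 0.30). STAG2 at this CTCF site was thus lower in STAG2-KD in both replicates, with an interval that excluded 0 in replicate 1 only, and the CTCF intervals included 0 in both.

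NF1 also held the only STAG2 site of the 8 genes that was lost in both replicates. A site was called lost where WT had a peak and STAG2-KD had none, and gained where the reverse held. NF1 site 12 in intron 36 (chr17:29613566-29614009), which lies within the bounds of OMG, a myelin glycoprotein gene inside NF1, had STAG2 peaks in WT at percentiles 16.4 and 35.0 and none in STAG2-KD. CTCF was at 17.5 in WT of replicate 1, absent in its STAG2-KD library, and at 36.7 and 29.5 in replicate 2. Neither STAG1 nor SMC1A had a peak there. NF1 site 14 (chr17:29648544-29649077), in the same intron and at a start of EVI2A, another gene inside NF1, gained STAG1 in both replicates, at percentiles 14.9 and 21.8. STAG2 there was at 26.4 in WT and absent in STAG2-KD of replicate 1, against 42.1 and 45.7 in replicate 2.

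**Figure D2:**
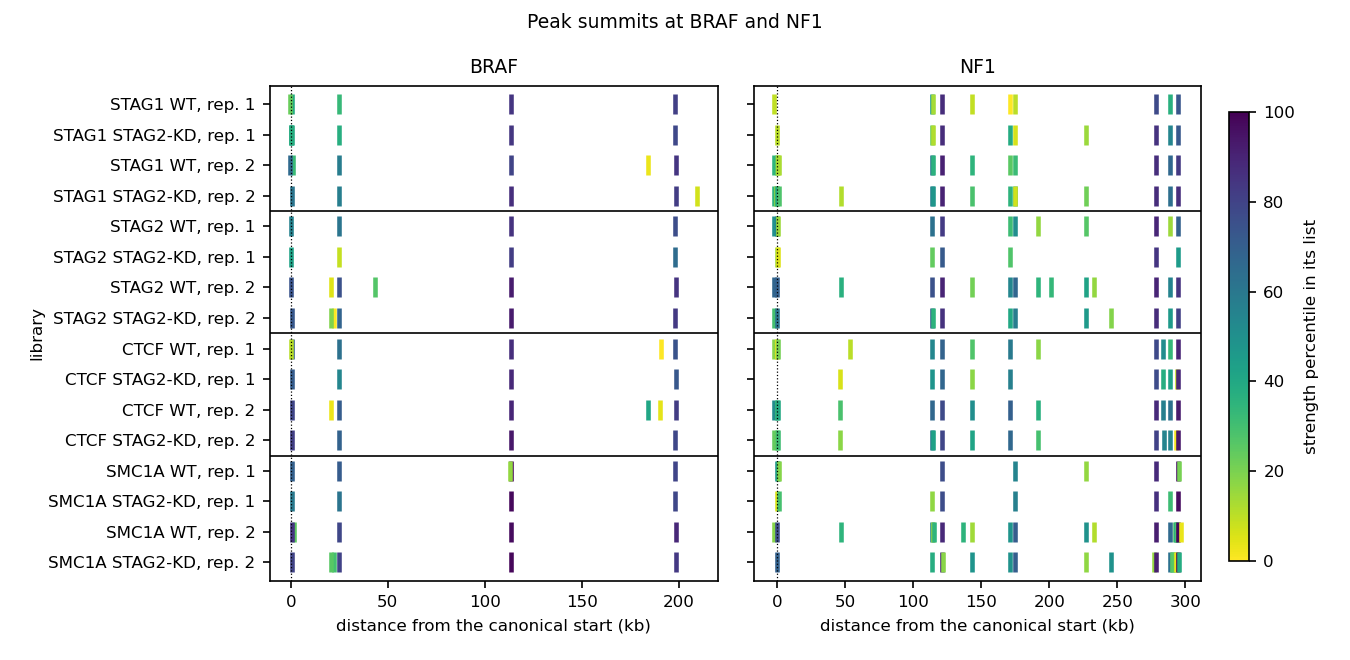
Summits of the peaks at BRAF (left) and NF1 (right) in each of the 16 libraries (rows), by distance from the canonical start in kb, with the percentile of the peak as colour. The columns of dark ticks at 114 kb in BRAF and at 278 kb and 295 kb in NF1 run through all 16 libraries.

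CCND1 (chr11:69455924-69469242, plus strand) held a site between percentiles 93.6 and 99.8 in every list. Overlapping peaks joined its promoter and first introns into CCND1 site 3, 8433 bp long, whose highest summit lay in intron 2, 2.36 kb from the start. STAG1 stood there at percentile 93.6 in WT and 96.0 in STAG2-KD of replicate 1, against 96.3 and 98.1 in replicate 2. STAG2 stood at 96.7 and 99.0, and at 99.2 and 99.8. CTCF was at 98.9 and 96.7 and at 97.6 and 97.0, and SMC1A at 97.2 and 95.3 and at 99.0 and 99.2. In fragments, STAG2 was not higher: it held 227 in WT and 204 in STAG2-KD of replicate 1 and 212 and 208 in replicate 2 (log2 ratios −0.08, −0.36 to 0.20, and −0.07, −0.35 to 0.21). With duplicate reads removed, a summit can hold at most 240 fragments in replicate 1 and 300 in replicate 2, and 6 peaks of CCND1 and 5 of MYC held over 80% of that. No peak of the other 6 genes did. In replicate 1, WT first, 2 of 39 and 2 of 44 STAG1 peaks of the 8 genes did so. The shares of those whole lists were 7.75% and 8.84%. For STAG2 the numbers were 1 of 42 and 1 of 34, against 5.41% and 1.66%. For CTCF they were 2 of 38 and 1 of 36, against 6.49% and 7.55%. In replicate 2, 1 of 43 and 1 of 55 STAG1 peaks did so, against 0.292% and 0.238%. Such summits were thus not particular to these genes. The strongest CTCF summit of CCND1 had no match to the CTCF core within 50 bp.

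Away from this block, CCND1 carried many weak SMC1A peaks and a pair of CTCF sites past its end. The site CCND1 site 4 in intron 3 (chr11:69461349-69463421) was the only one of the 8 genes that gained SMC1A in both replicates, at percentiles 16.5 and 39.4. CCND1 site 13, 18.7 kb from the start, was described after its values were seen. STAG1 was there at 12.3 in WT and 56.5 in STAG2-KD of replicate 1, with 14 and 39 fragments, and at 61.2 and 66.9 in replicate 2, with 39 and 43 fragments. The log2 ratios were 1.69 (0.78 to 2.69) and 0.28 (−0.38 to 0.94). CTCF went from 27.9 to 41.8 and from 48.5 to 55.7 and SMC1A from 28.5 to 64.9 and from 67.1 to 76.2, while STAG2 had no peak in any list. The STAG1 interval excluded 0 in replicate 1 and included it in replicate 2. At its neighbour, CCND1 site 15, STAG2 was at 32.9 in WT and absent in STAG2-KD of replicate 1, against 53.9 and 11.5 in replicate 2. STAG1 at CCND1 site 15 went from 38.1 to 54.9 and from 56.4 to 62.6.

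MYC (chr8:128747680-128755197, plus strand) was covered from before its start to past its end by MYC site 6, 13805 bp of joined peaks. The antibodies had their highest summits at different places in it. STAG1, STAG2 and CTCF peaked 2.07 kb upstream of the start, and SMC1A peaked 0.01 kb from the start. STAG1 was at percentiles 99.6 and 99.4 in replicate 1 and 99.9 and 99.9 in replicate 2, among the strongest STAG1 peaks of the genome. STAG2 at the upstream summit went from 88.2 to 83.8 and from 93.2 to 92.5, and CTCF from 95.5 to 94.4 and from 95.6 to 95.6. CTCF also had summits at the start, where it went from 77.0 to 82.2 and from 83.8 to 91.0, and 1.63 kb into the gene, where it went from 76.4 to 82.6 and from 81.8 to 88.1. Its log2 ratios were 0.26 (−0.11 to 0.63) and 0.11 (−0.20 to 0.43) at the start, and 0.40 (0.03 to 0.78) and 0.31 (−0.02 to 0.65) at 1.63 kb, so the interval excluded 0 at the latter in replicate 1 alone. SMC1A at the start went from 92.2 to 97.4 and from 99.3 to 99.6, with 83 fragments in WT and 130 in STAG2-KD of replicate 1 and 147 and 195 in replicate 2. The log2 ratios of SMC1A were 0.51 (0.10 to 0.93) and 0.43 (0.11 to 0.75). No other antibody and site of the 8 genes had intervals that excluded 0 in the same direction in both replicates. The median SMC1A ratio over sites of the genome was itself above 0, at 0.21 and 0.28, with 95th percentiles of 0.90 and 0.80, so the MYC values lay inside the spread of the genome. The number of STAG2 peaks of MYC went from 8 to 13 (replicate 1) and from 4 to 6 (replicate 2), while that of SMC1A went from 12 to 10 and from 11 to 8. The length covered by the SMC1A peaks rose, from 9282 to 11224 bp and from 14178 to 16852 bp. That of the STAG2 peaks went from 4776 to 4299 bp and from 7027 to 8965 bp. In such a joined region the number of peaks is thus not a measure of binding. Only 1 summit is listed per peak, so a place without a summit in the joined region is not a place without signal. MYC site 1, 10.3 kb upstream and described after its values were seen, was in all 16 lists, and STAG2 there went from 64.6 to 49.2 and from 73.4 to 66.6.

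**Figure D3:**
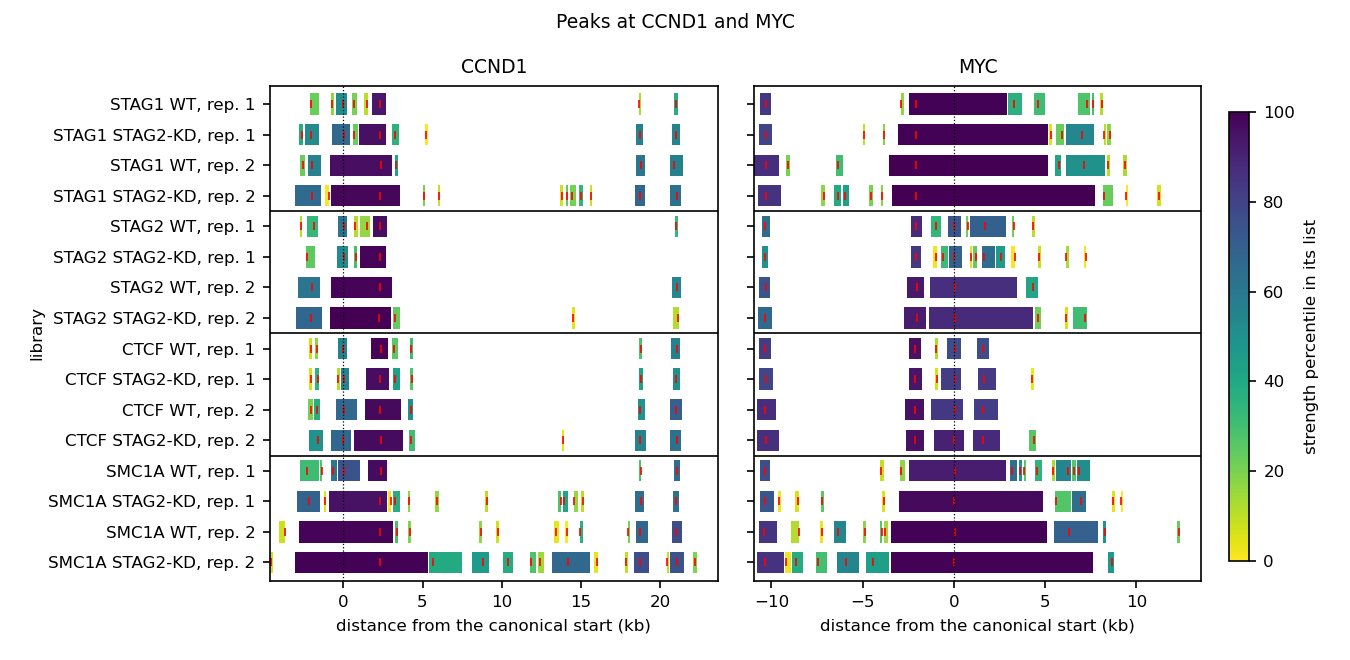
Peaks at CCND1 (left) and MYC (right) in each of the 16 libraries (rows), by distance from the canonical start in kb, with the percentile of the peak as colour and its summit as a red tick. At MYC the SMC1A summits of the widest peaks lie at the start and the STAG1 summits 2.07 kb upstream of it, and CCND1 has a dark peak 2.36 kb from the start in all 16 libraries.

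CDKN2A (chr9:21967751-21995300, minus strand) has separate starts for its 2 products, and cohesin was found at both. At the INK4a start, CDKN2A site 9, SMC1A was at 42.2 in WT and 53.1 in STAG2-KD of replicate 1, against 69.2 and 68.4 in replicate 2. STAG2 there was at 16.1 and absent in replicate 1, against 58.8 and 38.8 in replicate 2. STAG1 was absent in WT and at 2.52 in STAG2-KD of replicate 1, against 33.6 and 42.6 in replicate 2, and CTCF was found in replicate 2 only, at 13.6 and 10.9. The region of the ARF start, CDKN2A site 16, is shared with the start of the antisense RNA CDKN2B-AS1 and was in all 16 lists. SMC1A there went from 58.5 to 68.2 and from 77.7 to 82.5, with 17 fragments in WT and 26 in STAG2-KD of replicate 1 and 35 and 49 in replicate 2. The intervals of these ratios included 0 in both replicates (0.48, −0.46 to 1.45, and 0.50, −0.15 to 1.17). STAG2 went from 45.2 to 34.8 and from 67.3 to 63.4, and STAG1 from 27.0 to 45.2 and from 65.4 to 55.7. The number of SMC1A peaks over the whole window went from 6 to 7 (replicate 1) and from 9 to 17 (replicate 2), and the number of STAG2 peaks from 6 to 2 and from 6 to 4. The direction varied among the other genes. SMC1A peaks were fewer in STAG2-KD of both replicates at KIT, MYC, NF1 and TERT and more numerous at CCND1, and STAG2 peaks were fewer at NF1 and more numerous at MYC. The SMC1A numbers at KIT and TERT differed by 1 or 2 peaks, and at MYC the length covered by SMC1A peaks rose. The share of all genes with such changes is not given here.

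TERT (chr5:1253262-1295183, minus strand) had 4 sites, and its start was held by CTCF and SMC1A without either STAG protein. At this start, TERT site 3, CTCF was at 12.2 in WT and 22.0 in STAG2-KD of replicate 1, against 37.2 and 39.1 in replicate 2. SMC1A was at 24.1 and absent in replicate 1, against 8.57 and 42.3 in replicate 2. The strongest site of the window, TERT site 1, lay 49.9 kb from the start, past the end of TERT and within the bounds of SLC6A18, an amino acid transporter gene. STAG2 there went from 66.8 to 43.2 and from 75.1 to 66.9, with 51 and 23 fragments in replicate 1 (log2 ratio −1.08, −1.85 to −0.34) and 57 and 43 in replicate 2 (−0.45, −1.06 to 0.15). STAG1 went from 49.8 to 62.3 and from 63.2 to 69.6, and its intervals included 0 in both replicates. CTCF went from 57.6 to 50.0 and from 67.9 to 60.1. TERT site 4, 4.52 kb upstream of the start (chr5:1299579-1299766), gained STAG1 in both replicates at percentiles 2.52 and 19.3, and no other antibody had a peak there.

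Over the 8 windows together, the STAG2 antibody, which shows the target of the knockdown, had 42 peaks in WT and 34 in STAG2-KD of replicate 1 and 39 and 40 in replicate 2. The mean log2 ratio was −0.13 ± 0.24 (SD, n = 2), and the ratio over all peaks of the genome was −0.30 ± 0.19 (SD, n = 2). STAG1 had 39 and 44 peaks and 43 and 55 (0.26 ± 0.13, against 0.26 ± 0.24 in the genome). CTCF had 38 and 36 and 41 and 39 (−0.075 ± 0.0041, against −0.022 ± 0.086), and SMC1A 46 and 47 and 68 and 72 (0.057 ± 0.036, against 0.086 ± 0.096). The two-sided exact permutation test of 2 libraries against 2 gave p = 0.333 for STAG1, which is the smallest it can give, and p = 0.667 for each of the other antibodies, so no change in number passed a test. With equal numbers of peaks taken from each list the STAG1 ratio became −0.24 and the SMC1A ratio −0.22, and under a stricter threshold they were −0.0027 and −0.032.

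STAG2 held fewer fragments in STAG2-KD at the shared sites of these genes. In depth-scaled fragments, 15 of the 16 sites with values in all 4 STAG2 lists were lower in both replicates, against 70% in the genome. The median log2 ratio was −0.60 in replicate 1 and −0.23 in replicate 2, against −0.40 and −0.13 over the genome. The intervals of 9 of 17 sites lay below 0 in replicate 1, at TERT, BRAF (3), MYC and NF1 (4), and those of 0 of 17 sites in replicate 2, where the change at each single site was within its counting error. The share of genome sites with such intervals is not given, so these counts cannot be read as a trait of these genes. By percentile, 16 of the 18 sites held by all 4 STAG2 lists were lower in both replicates, against 60.4% of the genome, and 1, CCND1 site 3, was higher, against 12.4%. The median change of percentile was −12.3 points in replicate 1 and −4.08 in replicate 2, against −8.29 and −1.93 over the genome, and includes what the shorter STAG2-KD lists take from every rank. Ranked among the shared STAG2 sites alone, where the length of a list has no part, 10 of the 18 were lower in both, against 36.1%, and 3 higher, against 33.9%, with median changes of −2.02 and −3.32 points. In replicate 1, 8 of 26 STAG2 sites were lost, against 28.3% of the genome. In replicate 2, 7 of 34 were lost, against 20.7%, and in both replicates 1 of 26, against 4.81%. No STAG2 site was gained in both replicates (0 of 18, against 0.659%).

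STAG1 did not move in one direction at the shared sites. In depth-scaled fragments, 10 of 20 sites were higher in STAG2-KD in both replicates, against 68.6% of the genome, and 5 were lower, against 8.26%. Of the 21 sites in all 4 STAG1 lists, 7 were higher by percentile in both, against 56.6%, and 4 were lower, against 11.1%. Ranked among the shared STAG1 sites alone, 4 were higher, against 33.2%, and 8 lower, against 32.7%. The 7 that were higher were CCND1 sites 3, 13 and 15, KIT site 5, NF1 sites 10 and 18, and TERT site 1. The 4 that were lower by percentile were BRAF site 2, MYC site 1 and NF1 sites 5 and 7. In depth-scaled fragments NF1 site 7 was instead higher in both replicates (log2 ratios 0.27 and 0.07). The ratios were −0.13 and −9.1e-05 at MYC site 1, −0.12 and −0.10 at BRAF site 2 and −0.75 and −0.51 at NF1 site 5. At NF1 site 5, in intron 12, STAG1 went from 45.4 to 23.2 and from 60.9 to 57.0. The median change was 4.33 percentile points in replicate 1 and 0.026 in replicate 2, against 8.55 and 1.25 over the genome, and became −2.12 and −2.48 when ranked among the shared sites, so its direction depended on the ranking. New STAG1 sites numbered 4 of 25 in replicate 1, against 26.8%, and 9 of 38 in replicate 2, against 16.1%. Both replicates shared 2 of 25, TERT site 4 and NF1 site 14, against 5.56%. No STAG1 site was lost in both (0 of 23, against 1.28%).

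At 23 sites in all 4 CTCF lists the percentile was lower in both replicates at 14, against 37.5% of the genome, and higher at 6, against 29.5%, with median changes of −1.57 and −2.09 points, against 0.67 and −1.49 over the genome. In depth-scaled fragments, 14 of 22 CTCF sites were lower in both replicates, against 37.8%, and 6 were higher, against 34.3%. Ranked among the shared CTCF sites alone, 11 of 23 were lower in both, against 35.1%, and 6 were higher, against 35.2%. All intervals of CTCF fragments, 22 in replicate 1 and 23 in replicate 2, included 0. The share of genome sites with such intervals is not given. The CTCF peak at BRAF site 3 was the only one lost in both replicates (1 of 27, against 2.95%, and 0 under the stricter or common threshold), and 0 of 25 were gained in both, against 1.77%. SMC1A, the subunit of every such ring, was lower by percentile at 6 of 20 sites in both replicates, against 29.5%, and higher at 4, against 39.7%. The 4 were CCND1 site 13, CDKN2A site 16, MYC site 6 and NF1 site 7. The 6 included the start sites of KIT, BRAF and NF1, where every available interval of SMC1A fragments included 0. In depth-scaled fragments, SMC1A was higher in both replicates at 10 of 17 sites, against 66.6%, so its direction depended on the measure. SMC1A was gained at 9 of 29 sites in replicate 1, against 22.8%, at 26 of 64 in replicate 2, against 29.7%, and at 1 of 28 in both, against 5.39%. No SMC1A site was lost in both replicates (0 of 23, against 2.96%).

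**Figure D4:**
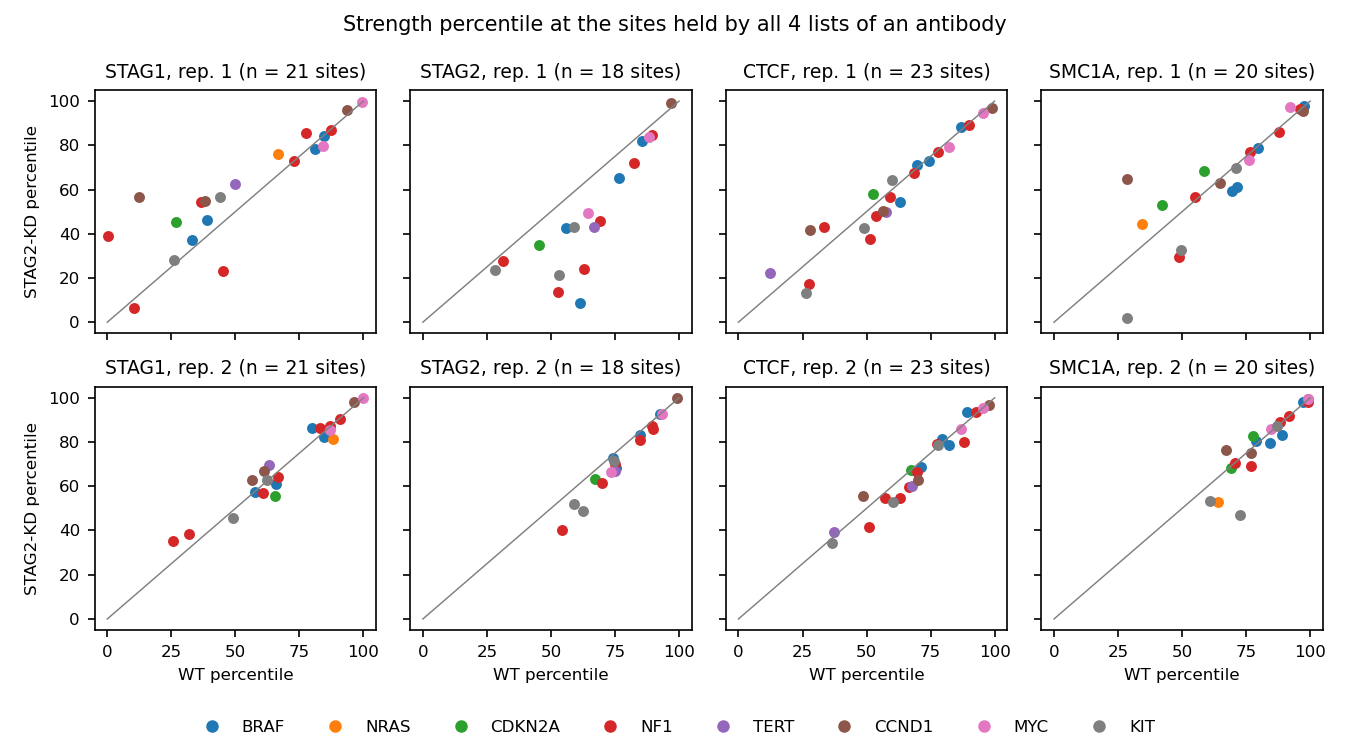
Percentile in STAG2-KD (vertical axis) against WT (horizontal axis) for the sites held by all 4 lists of an antibody, with replicate 1 above and replicate 2 below, 1 point per site, coloured by gene; the line marks equal values. In the STAG2 panels nearly all points lie below the line, farther in replicate 1, with the CCND1 point at the upper right above it.

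**Figure D5:**
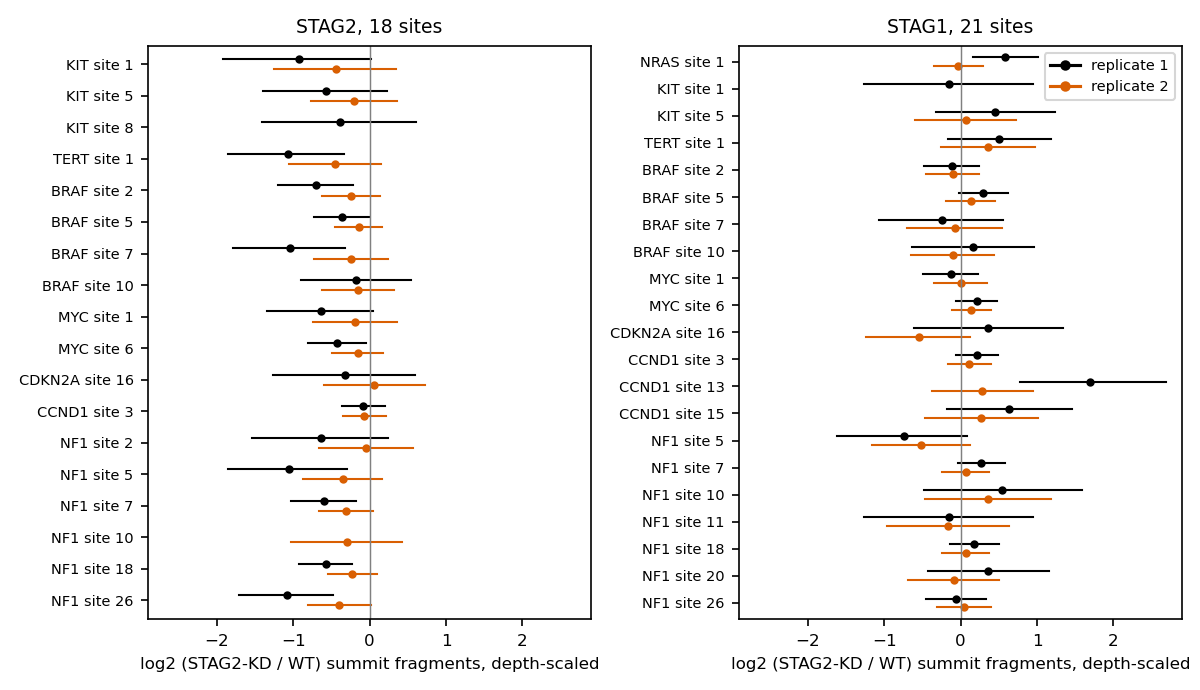
Depth-scaled log2 ratio of summit fragments, STAG2-KD over WT, for the STAG2 (left, 18 sites) and STAG1 (right, 21 sites) shared sites, with 95% intervals of counting error; black is replicate 1 and orange replicate 2, and ratios without a unique fragment number are not drawn. For STAG2, 9 intervals of replicate 1 and 0 of replicate 2 lie below 0, and the share over the genome is not given.

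The balance of the 2 STAG proteins at these genes was then counted by site. In WT, 3 of 29 sites with either protein had STAG1 alone and 6 had STAG2 alone in replicate 1, and 6 and 9 of 40 in replicate 2. In STAG2-KD, 8 of 26 had STAG1 alone and 1 had STAG2 alone in replicate 1, and 11 and 4 of 42 in replicate 2. Sites with STAG1 alone were thus more numerous, and sites with STAG2 alone less numerous, in STAG2-KD of both replicates, and no test was made of these counts. Over the genome the share with STAG1 alone was 5.89% and 7.54% in WT and 31.6% and 13.5% in STAG2-KD. The genome share with STAG2 alone was 22.7% and 25.0028% in WT and 3.27% and 16.5% in STAG2-KD. Both shifts were therefore also seen over the genome and were not particular to these genes. Of the 8 sites that lost STAG2 in replicate 1, 3 had STAG1 before and after, 2 gained STAG1, 1 lost it too and 2 had none; over the genome 32.2% kept STAG1, 20.5% gained it, 7.58% lost it and 39.8% had none. Of the 7 in replicate 2, 1 kept STAG1, 1 gained it and 5 had none, against 15.4%, 9.53% and 66.3% over the genome.

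The wider pathways of these genes were taken as 4 lists with 31 other genes, of RAS and MAPK signalling (11), G1 and p53 control (9), PI3K signalling (5), and chromatin and other melanoma genes (6), with 422 sites in the same windows. Of their STAG2 sites, 6 of 117 were lost in both replicates (5.13%, against 4.81% of the genome) and 3 of 86 gained (3.49%, against 0.659%). STAG1 was lost in both at 3 of 88 (3.41%, against 1.28%) and gained at 5 of 111 (4.50%, against 5.56%). CTCF was lost at 5 of 127 (3.94%, against 2.95%) and gained at 1 of 119 (0.840%, against 1.77%), and SMC1A was lost at 6 of 115 (5.22%, against 2.96%) and gained at 8 of 129 (6.20%, against 5.39%). The 6 lost STAG2 sites were at GNAQ, a G protein alpha subunit, CDK6, a cyclin D kinase, RB1, the retinoblastoma suppressor, with 2 sites, the kinase AKT1, and ARID2, a chromatin remodelling subunit. Those at RB1 were the strongest in WT of replicate 1, at percentiles 21.9 and 34.1 in replicate 1 and 56.3 and 53.5 in replicate 2. The 3 gained STAG2 sites were at HRAS, CDK4 and TERC, the telomerase RNA, which also gained a STAG1 site at 39.1 and 36.3. STAG1 was also gained at GNAQ, CDK6, CCND2 and CTNNB1, and lost at another site of GNAQ, at PIK3CA and at another site of CTNNB1.

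By depth, the libraries of replicate 1 ranged from 20.2 to 46.7 M reads, and those of replicate 2 from 37.4 to 71.7 M reads, with the WT and STAG2-KD libraries of an antibody close to each other within a replicate. The label of a melanoma line was checked at gene promoters. Of 7 melanocyte genes, MITF, SOX10 and TYRP1 had a peak in 16 lists each, PMEL in 15, TYR in 11, DCT in 10 and MLANA in 6. COL1A1, COL1A2, PDGFRA and DCN, which mark fibroblasts, also had one in all 16, the keratinocyte gene KRT14 in 10 and KRT5 and KRT1 in none, the leukocyte genes PTPRC and CD3E in 5 and 7, and the liver genes ALB, APOA1 and FGA in 0 to 4. Such peaks occur at genes of other cell types and do not test the label.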

How the data were processed

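ChIP-seq peak lists of STAG1, STAG2, CTCF and SMC1A in WT and STAG2-KD M14 cells were used, 1 list per library. The input libraries served as the authors' controls. Per the study's methods, the authors aligned to hg19 by bowtie2, discarded duplicates and reads of low quality, and ran MACS2 on each library with its input; the labels also name BWA for replicate 2. The score the authors deposited is 10 times −log10 of q (replicate 1) or of p (replicate 2), truncated. The deposited fold enrichment is a ratio of pileup to background at the summit, and the deposited −log10 p-value and −log10 q-value belong to the same summit. The lowest −log10 q-value in lists of replicate 1 was 2, and in replicate 2 the limit of 2 was on −log10 p instead.

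Only peaks of the autosomes, X and Y entered, so that 2.97% to 4.60% of rows in replicate 1 and 0.137% to 0.253% in replicate 2 were left out. Percentiles were taken from −log10 p-value within a list. Summit fragments and depth (assuming a genome of 2.7 Gb) were recovered from fold and p-value. The share of peaks with 1 solution was lowest in the WT STAG2 list of replicate 1, at 95.1%. The share without a solution was highest in the WT STAG1 list of replicate 2, at 1.53%. Whether the recovered fragment numbers match the reads was not tested. Log2 ratios used Clopper-Pearson intervals at 95%. WT and STAG2-KD peak numbers were set against each other in an exact permutation test, two-sided. Python 3.11.15, numpy 2.4.6, pandas 2.3.3, SciPy 1.17.1, pysam 0.24.0, matplotlib 3.10.9 and samtools 1.23.1 were used. Libraries with the same replicate number shared an extraction and size selection per the labels, so the replicate served as a block in an alternative.

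The members, lists and tests were chosen with earlier results of these data known. For each gene the text names the site nearest to its start within 1 kb, the site with the highest mean percentile, and each site lost or gained in both replicates. For each gene, the protein-coding gene with the most alike peak numbers over the lists is also named.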

Additional observations from a re-analysis of the deposited data

Results flagged for a closer look

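Some antibodies moved in opposite directions between WT and STAG2-KD over the 8 gene windows. The log2 ratio of peak numbers was above 0 in both replicates for STAG1 (0.17 and 0.36) and for SMC1A (0.031 and 0.082) and below 0 in both for CTCF (−0.078 and −0.072). The difference between the antibodies was not tested, and the ratios of CTCF and SMC1A correspond to changes of 1 to 4 peaks.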

How the results depend on the processing

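Of 134 recomputed values, 87 stayed on the same side or within the limits set, 38 moved and 9 changed direction. The cause was not tested. Some of these outcomes were fixed in advance, so the tally does not measure stability. The replicate block keeps the mean by construction. Without 1 replicate, a median percentile change always stays within its limit unless its sign turns. Counts of sites in 1 replicate cannot be below those in both. The log2 ratio of peak number turned to −0.0027 for STAG1 and −0.032 for SMC1A under a stricter threshold, to −0.24 and −0.22 with equal numbers from each list, and to −0.048 for SMC1A without the flanks. With the replicate block the mean ratios were 0.26 (STAG1), −0.13 (STAG2), −0.075 (CTCF) and 0.057 (SMC1A), the same as without it, with an exact sign-flip p of 0.5, the smallest it can give, for STAG1, CTCF and SMC1A and 1 for STAG2. Without 1 replicate they ranged from 0.17 to 0.36, −0.30 to 0.037, −0.078 to −0.072 and 0.031 to 0.082. The median SMC1A change of −0.55 percentile points became 0.085 as a log2 fold ratio and 0.13 as a depth-scaled log2 ratio. Ranked among the shared sites, an alternative chosen after seeing the data, it became −2.07, and the STAG1 change of 2.18 points became −2.30.

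Counts of sites in both replicates were small and moved. In each replicate alone, with replicate 1 first, STAG1 lost 2 of 23 and 2 of 31 sites, against 4.78% and 11.1% of the genome. It gained 4 of 25 and 9 of 38, against 26.8% and 16.1%. STAG2 lost 8 of 26 and 7 of 34 (28.3% and 20.7%) and gained 0 of 18 and 4 of 31 (5.02% and 10.9%). CTCF lost 5 of 28 and 3 of 32 (10.4% and 15.9%) and gained 2 of 25 and 2 of 31 (12.6% and 11%). SMC1A lost 3 of 23 and 14 of 52 (12.6% and 26.1%) and gained 9 of 29 and 26 of 64 (22.8% and 29.7%). STAG1 gains in both numbered 1 of 20 under the stricter threshold, 0 of 18 with equal numbers and 1 of 18 without flanks. They numbered 5 of 58 with 50 kb flanks and 4 of 29 with sites joined from its own lists. With summits matched within 250 bp, an alternative chosen after seeing the data, they numbered 4 of 30. The share with 50 kb flanks was 8.62%, against 8% in the main setting. STAG2 losses numbered 2 of 26 under the stricter threshold and 3 of 22 with equal numbers, and its gains 2 of 22 by own lists and 2 of 23 by summits. CTCF losses numbered 0 of 26 under the stricter and 0 of 26 under a common threshold and 2 of 53 with 50 kb flanks. Its gains numbered 1 of 30 by own lists and 1 of 30 by summits. SMC1A losses numbered 1 of 21 under the stricter threshold, 2 of 22 with equal numbers and 1 of 25 by summits. Its gains numbered 3 of 28 under the common threshold, 3 of 58 with 50 kb flanks, 2 of 30 by own lists and 2 of 30 by summits. Shares over the genome are not given for these alternatives.

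Only 2 libraries stood for each antibody and condition, so that the permutation test gives at least p = 0.333. Presence or absence was set by thresholds that differed between replicates, and a site just under one counts as absent. Summits near the limit of 240 or 300 fragments have little room above them.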

Other observations

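Inside the joined regions of MYC and CCND1, a few weak gains were counted when summits were matched within 250 bp, an alternative chosen after seeing the data; sites joined from each antibody's own lists gave as many gains of STAG1, STAG2 and CTCF. By summits STAG1 gained a summit in both replicates 3.82 kb upstream of MYC, at percentiles 18.2 and 17.96, and 5.12 kb into CCND1, at 0.174 and 19.97. STAG2 gained summits in both replicates 6.32 kb from the MYC start, at percentiles 13.6 and 5.98, and 7.03 kb from it, at 0.852 and 30.6, and CTCF gained one 4.59 kb from it, at 2.50 and 26.4. Over the 8 windows, gains by summits numbered 4 of 30 for STAG1, 2 of 23 for STAG2 and 1 of 30 for CTCF. The share over the genome is not given for this matching, so whether such gains are ordinary was not tested.

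The local background that MACS2 used was higher than its lowest value at some of the genes. Its median over the peaks was 2.21 times the lowest value at BRAF, 2.16 at NRAS, 1.73 at NF1, 1.52 at MYC, 1.19 at CCND1, 1.10 at CDKN2A and 1 at TERT and KIT, and 1.33 over all peaks, with quartiles of 1.04 and 1.71. Its part in the number of peaks called was not tested.

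The protein-coding gene with the most alike peak numbers over the 16 lists was DCLK2 for NF1 (Pearson r = 0.94), RPL27A for CDKN2A (0.91), PPP2R1B for KIT (0.90), PDIA2 for TERT (0.85), SPACA9 for NRAS (0.85), USB1 for CCND1 (0.82), PHLDA1 for MYC (0.78) and SPAG1 for BRAF (0.75). These are the highest of 1050 to 7780 genes compared each and describe lists that share libraries and depth.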
